A study of Mus musculus with 12 samples.

Results

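Runx1 was represented in the promoter Capture-C table by 2 captured promoter fragments and 67 of the 89545 listed contacts, taken as all entries under the name Runx1 with or without a number that marks an alternative promoter. Capture-C ligates the ends of cross-linked, digested chromatin (here cut with DpnII) and enriches the products that carry a chosen promoter, so that a distal bin with many counts is one the promoter touched often. Fetal haematopoietic stem cells (HSCs) came from livers of B6129SF1 embryos at day 14.5 and adult HSCs from bone marrow of B6129SF1 mice aged 6 to 8 weeks. Both were sorted as lineage-negative, Sca1+, cKit+ and CD135- cells, and no treatment or altered allele is named for either group. Each population gave 4 libraries in 2 batches, and both Runx1 fragments were in the first batch, where 2 libraries per population stand behind each count and score. The deposited counts and scores are pooled over those libraries, so there is no replicate error and no test between populations. The libraries of the HPC7 cell line were not analysed here.

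RUNX1 is the DNA-binding subunit of a core-binding factor, which it forms with the partner protein CBFB, and it is required for the first HSCs to arise from endothelium in the embryo. The gene is read from a distal promoter, P1, and a proximal promoter, P2, which give proteins with different first residues. P1 transcripts are known to prevail in established blood stem and progenitor cells. An enhancer in the intron between the promoters, known as the +23 enhancer for its distance in kb downstream of P1, is active in haemogenic endothelium and in HSCs.

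The fragments were identified by their transcripts and positions. The P1 fragment (entry Runx1, ENSMUST00000023673) spans chr16:92825342-92826608 and is 1267 bp long. The P2 fragment (entry Runx1_1, ENSMUST00000168195) spans chr16:92697426-92697867 and is 442 bp long. These positions are those of the table, for which the submitters' processing notes name the mm9 build, and the middles of the fragments lie 128 kb apart. The gene lies on the minus strand, so higher coordinates are upstream of P1 and lower ones run along the gene through P2.

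The promoter sequences show how unlike the captured starts are. They were taken from RefSeq's GRCm38.p6 promoter table, which holds 2 starts for Runx1, and were assigned to P1 and P2 by their order along the gene. That build differs from the build of the contacts, and no position was converted. Each sequence is the minus strand, 250 bases before the start, with every CpG in capitals. P1 is chr16:92826075-92826324 and P2 is chr16:92697330-92697579 in GRCm38.p6.
P1: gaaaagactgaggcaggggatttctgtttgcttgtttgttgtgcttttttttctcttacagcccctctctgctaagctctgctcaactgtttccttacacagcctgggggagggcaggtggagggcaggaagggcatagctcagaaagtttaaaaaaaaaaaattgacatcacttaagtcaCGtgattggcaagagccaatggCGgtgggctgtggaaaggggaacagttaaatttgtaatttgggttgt
P2: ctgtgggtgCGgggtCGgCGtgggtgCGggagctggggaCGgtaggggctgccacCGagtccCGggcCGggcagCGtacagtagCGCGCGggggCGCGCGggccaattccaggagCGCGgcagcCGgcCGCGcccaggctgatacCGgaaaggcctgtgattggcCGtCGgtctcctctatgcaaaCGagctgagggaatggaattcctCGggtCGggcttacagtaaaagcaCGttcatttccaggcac
P1 holds 2 CpGs and a GC content of 45.6%, while P2 holds 27 CpGs and a GC content of 67.6%. Over the 32851 promoters of the table the median is 6 CpGs and a GC content of 52.4%. Fewer CpGs than in P1 were found in 18.8% of promoters, and fewer than in P2 in 91.4%.

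Short motifs were searched on both strands. The RUNX motif TGTGGT had no match in the 250 bases before either start, where 14.0% of all promoters hold one. In the window that adds 50 bases after the start it matched at 2 places in P1 and at none in P2, against 16.8% of all promoters with a match. Both matches read ACCACA on the minus strand shown, so that TGTGGT itself lies on the opposite strand. They begin 29 and 37 bases into the transcript and are in capitals below (chr16:92826028-92826051 in GRCm38.p6, minus strand).
P1 after the start: aaacaACCACAgaACCACAagttg
The CCAAT box letters CCAAT matched at 2 places before each start (33.8% of promoters hold a match), and the ETS letters AGGAAG at 1 place in P1 (29.5%). Neither sequence holds the GATA letters AGATAA (9.99% of promoters) or TGATAA (7.94%), the E-box CAGCTG (13.0%), the GC box GGGCGG (32.7%), the TATA letters TATAAA (12.4%) or the DpnII site GATC (41.9%). A match is a run of letters and not a measured binding site.

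Contacts were very unequal between the promoters. A contact, which joins a fragment to a distal bin of 2 kb, was called in a population when the authors' score was above 0, and the smallest score listed was 1.3. The values fit a −log10 scale of p, although no label names the scale. P1 had 44 fetal and 38 adult calls over 66 bins. P2 had 1 adult call and no fetal call. The median fragment of the first batch had 11 fetal and 10 adult calls. More calls than P1 were made at 152 of the 1952 fragments in fetal and at 180 in adult cells. A single listed contact, as at P2, was seen at 93 fragments (4.76%). The 359 fragments within 100 bp of the length of the P2 fragment had a median of 17 listed contacts.

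P1 had more fetal than adult calls, as did 48.1% of the first-batch fragments. The excess was lost when called bins up to 5 kb apart were merged, which left 18 fetal and 19 adult contacts. Over the 66 bins the counts summed to 874 in fetal and 809 in adult cells. Count ratios are given as log2 of fetal over adult, less the median of the 12845 first-batch contacts called in both populations (0.09), and their 95% intervals are exact binomial intervals that cover counting error only. On that scale P1 as a whole stood at 0.02 (-0.12 to 0.16). The 908 first-batch fragments with at least 20 listed contacts had a median of 0.04, with 5% of them below -0.33 and 5% above 0.48. Dividing instead by the summed counts of all listed contacts gave P1 a ratio of -0.15 (-0.28 to -0.01).

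**Figure D1:**
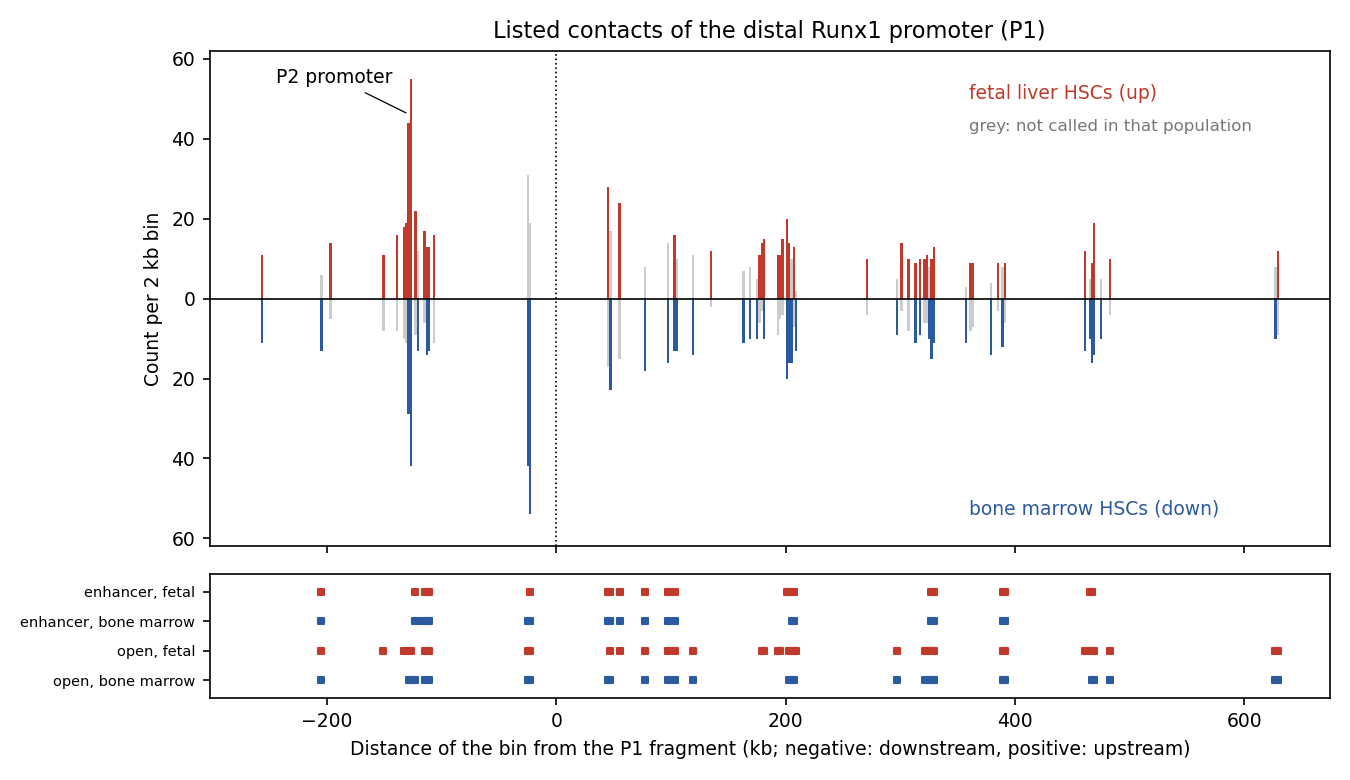
Counts in each 2 kb bin listed for the P1 fragment of Runx1, by distance in kb from the fragment (dotted line), with fetal liver HSCs upward and bone marrow HSCs downward; bars are grey where the population did not call the bin, and squares below mark bins with active enhancer or open-chromatin marks in each population. The tallest fetal bars stand at P2 (44 and 55 counts), and the tallest adult bar, of 54 counts, stands 23 kb downstream of P1.

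The bins at P2 had the highest scores of all P1 contacts in both populations, although by adult counts the bin at 23 kb was higher. The bin that holds the P2 fragment, 129 kb from P1, had 44 fetal and 29 adult counts, with scores of 13.88 and 10.93. The next bin, 127 kb away and just upstream of the P2 fragment, had 55 fetal and 42 adult counts and the highest scores of any Runx1 contact, 19.18 and 20.95. The former bin was marked as an active promoter in both populations and the latter in adult cells only, and both were open in both. Their count ratios were 0.51 (-0.20 to 1.24) and 0.30 (-0.31 to 0.91), so neither differed between the populations beyond counting error.

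Around P2, calls were mostly fetal. Bins were gathered into clusters wherever neighbouring called bins were at most 20 kb apart, a grouping chosen after the values were seen. The cluster at P2 held 12 bins, 107 to 151 kb from P1, with 11 fetal and 5 adult calls, 4 of them shared. Its counts summed to 256 fetal and 174 adult, a ratio of 0.46 (0.18 to 0.75). Bins called only in fetal cells flanked P2 on either side. On the far side of P2 they had 18 fetal and 10 adult counts at 133 kb and 19 and 11 at 131 kb. The bin at 131 kb carried a fetal active promoter mark and no adult one. Toward P1 stood bins with 22 and 9 counts at 123 kb and 17 and 6 at 115 kb, both marked as active enhancers in both populations. The only adult-specific bin of the cluster, at 121 kb, had 12 fetal and 13 adult counts and an active enhancer mark in adult cells only. Active enhancer bins at 113 kb (13 and 14 counts) and 111 kb (13 in each) were shared. The sums of a cluster run over bins that were listed because a population called them, so the mix of calls enters each such ratio. Here 7 of the 12 bins were fetal-specific and 1 was adult-specific, and no fetal excess beyond the calls is read from the ratio. Over all first-batch contacts 38.9% were fetal-specific and 35.4% adult-specific. The shares at the distance of this cluster were not computed, so the mix of calls has no matched background.

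The nearest contacts of P1 were adult calls on the way to P2. Nothing was listed between the P2 cluster and 25 kb from P1. There, 2 adjacent bins were called in adult cells only, with 31 fetal and 42 adult counts at 25 kb and 19 and 54 counts at 23 kb. Together they gave 50 fetal and 96 adult counts, a ratio of -1.03 (-1.56 to -0.53), or -1.10 (-1.62 to -0.59) against shared contacts at the same range of 20 to 60 kb. Both bins were adult-specific, and the 1597 adult-specific contacts of the first batch at that range had a median ratio of -0.53. The bin at 23 kb (chr16:92802001-92804001) was marked as an active enhancer and as open in both populations. The bin at 25 kb was open in both and marked as an active enhancer in adult cells only. The distance is that of the +23 enhancer, but whether the enhancer lies in these bins was not tested.

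These adult calls were weak by score. The adult scores were 1.67 and 2.29, and both calls were lost at a p 10 times smaller. Adult-specific calls were also frequent at this range, making up 45.8% of the 3484 first-batch contacts at 20 to 60 kb against 20.1% that were fetal-specific. Of 1649 first-batch contacts at 20 to 60 kb with at least 50 counts in all, 0.303% had a ratio as low or lower, against 15.4% for the bin at 25 kb. The bin was singled out after its values were seen, so the rank is a description.

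**Figure D2:**
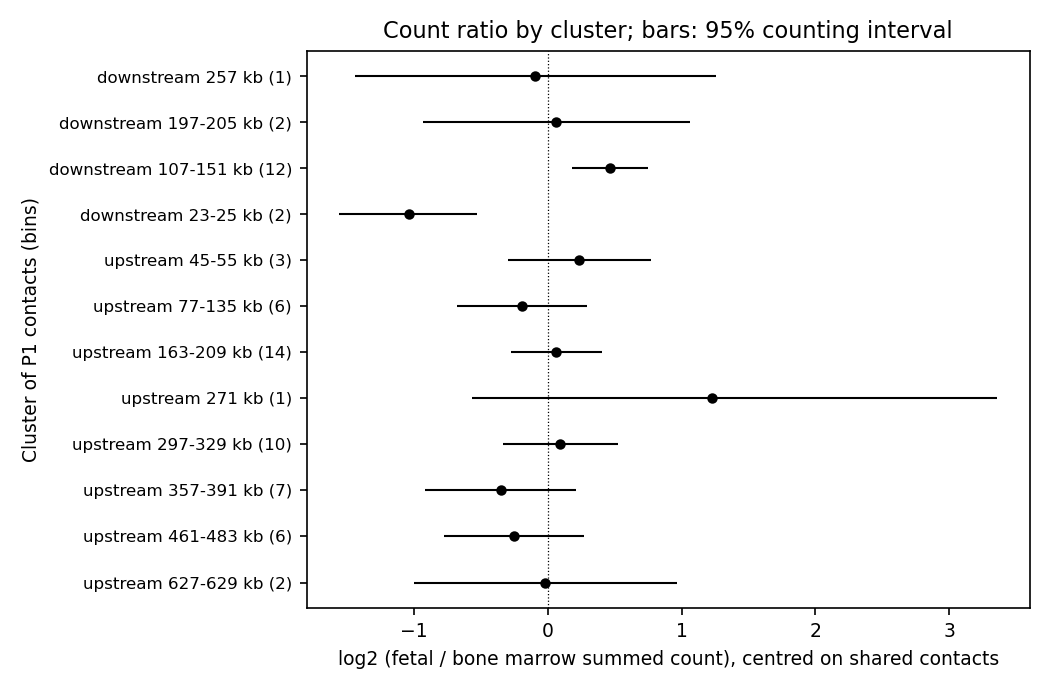
The log2 ratio of fetal over bone marrow counts summed over each of the 12 clusters of P1 contacts, less the median of shared first-batch contacts, with exact 95% counting intervals as bars and the number of bins in parentheses. The cluster at P2 lies at 0.46 and the bins at 23 to 25 kb lie at -1.03, and the intervals of the other clusters include 0.

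The P2 fragment had its only contact at P1. From the P2 fragment the bin that holds the downstream part of the P1 fragment (chr16:92824001-92826001, active promoter and open in both populations) had 20 fetal and 37 adult counts. It scored 6.71 in adult cells and was not called in fetal cells. Fetal counts made up 35.1% (22.9 to 48.9) of the counts from P2 and 60.3% (48.1 to 71.5) of those from P1 at the P2 bin, and these intervals overlap narrowly. The count ratio from P2 was -0.98 (-1.84 to -0.16), against 0.51 (-0.20 to 1.24) from P1. The contact from P2 was listed because adult cells called it, so that call enters its ratio. The pair of promoters was thus called from P1 in both populations and from P2 in adult cells. Since the only listed bin of P2 is that of the P1 fragment itself, distal bins could not be compared between the promoters.

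Beyond P2 the P1 fragment had few contacts along the gene. At 205 kb a bin with active enhancer marks in both populations had 6 fetal and 13 adult counts and was called in adult cells. Its neighbour at 197 kb, without marks, had 14 and 5 and was called in fetal cells. A shared, unmarked bin at 257 kb had 11 counts in each population. RefSeq gives Runx1 a length of 225 kb, so by distance this bin lies past the end of the gene.

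Most P1 contacts lay upstream of the gene. The side and distance of these calls were not compared with those of other fragments. Upstream bins took 31 of 44 fetal calls (70.5%) and 29 of 38 adult calls (76.3%), at median distances of 307 and 297 kb, and the farthest was 629 kb away. In the RefSeq gene order of GRCm38.p6, 7 long non-coding RNA genes and 1 microRNA gene (Mir802) stand between Runx1 and Setd4, the next protein-coding gene upstream. Over both sides the median distance was 199 kb for fetal and 204 kb for adult calls, and the difference between these medians is small beside the spread of the distances (quartiles of 132 and 324 kb in fetal and 120 and 329 kb in adult cells).

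The nearest upstream contacts were all at active enhancers. At 45.0 kb a bin had 28 fetal and 17 adult counts and was called in fetal cells. The bin beside it, at 47.0 kb, had 17 and 23 and was called in adult cells. A further bin at 55.0 kb had 24 and 15 and was called in fetal cells. All 3 carried active enhancer marks in both populations, and their summed ratio was 0.23 (-0.30 to 0.77). Counts leaned opposite ways at the adjacent bins, and each interval included 0.

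From 77.0 to 135 kb upstream, calls were mostly adult. Of 6 bins, 5 were called in adult and 2 in fetal cells. Those at 77.0 kb (8 fetal and 18 adult counts), 97.0 kb (14 and 16) and 103 kb (16 and 13, the shared one) were active enhancers in both populations. Adult-specific bins at 105 kb (10 and 13) and 119 kb (11 and 14) had no active mark, the second being a primed enhancer in adult cells. The fetal-specific bin at 135 kb had 12 fetal and 2 adult counts and no mark. The summed ratio of the cluster was -0.19 (-0.68 to 0.29). The class shares of first-batch contacts at this distance were not computed, so the lean of these calls has no matched background.

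The largest upstream cluster ran from 163 to 209 kb with 14 bins, 9 fetal and 8 adult calls. Its strongest bin, at 201 kb, had 20 counts in each population, scores of 6.15 and 6.02, and an active enhancer mark in fetal cells only. The neighbour at 203 kb, also active in fetal cells only, was shared with 14 and 16 counts. Bins at 205 kb (10 fetal and 16 adult counts, called in adult cells) and 207 kb (13 and 7, called in fetal cells) were active enhancers in both. At 209 kb there were 2 fetal and 13 adult counts and an adult call. Closer to P1 the calls alternated in blocks. The 3 adult-specific bins at 163 to 175 kb had 10 or 11 adult and 5 to 8 fetal counts. They were followed by fetal-specific bins at 177 and 179 kb (11 and 14 fetal, 6 and 3 adult counts), a shared bin at 181 kb (15 and 10) and fetal-specific bins at 193 to 197 kb (11 to 15 fetal and 4 to 9 adult counts). The summed ratio of the cluster was 0.06 (-0.28 to 0.40).

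Farther clusters carried smaller counts, of at most 19 per bin. The cluster at 297 to 329 kb had 8 fetal and 6 adult calls and ended in a pair of shared active enhancer bins at 327 kb (10 fetal and 15 adult counts) and 329 kb (13 and 11). At 357 to 391 kb, 7 bins gave 4 fetal and 3 adult calls with none shared. There the adjacent active enhancer bins at 389 kb (8 and 12) and 391 kb (9 and 6) were called in different populations. The cluster at 461 to 483 kb held 6 bins and 3 shared calls. Its bin at 469 kb was open without an enhancer mark and had 19 and 14 counts, with scores of 6.43 and 3.77. Its bin at 467 kb, active in fetal cells only, had 9 fetal and 16 adult counts and scores of 1.51 and 4.49. The bin at 465 kb, also active in fetal cells only, had 5 fetal and 10 adult counts and was called in adult cells. A lone fetal-specific bin stood at 271 kb (10 and 4), and the outermost pair, at 627 kb (8 and 10, adult) and 629 kb (12 and 9, fetal), was open in both populations and marked as a primed enhancer in fetal cells. The intervals of all these clusters included a ratio of 0.

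**Figure D3:**
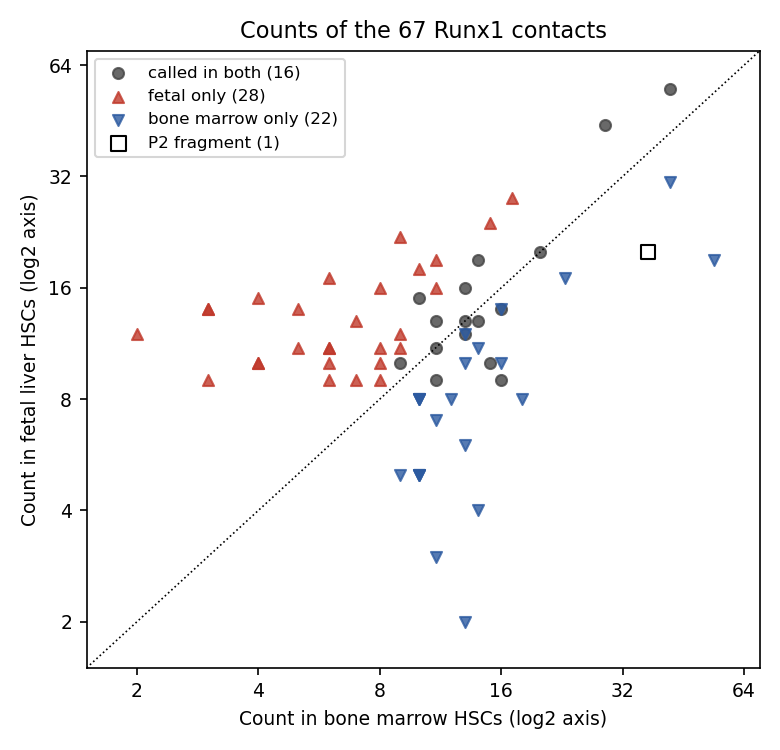
Fetal against bone marrow counts of the 67 Runx1 contacts on log2 axes, by the population that called them, with the line of equal counts dotted. The 16 shared P1 contacts lie along the line and include those at P2 (44 and 29, 55 and 42), and the single P2 contact (20 and 37) lies below it.

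Fetal and adult call sets of P1 overlapped about as much as those of other promoters. Of the 66 bins 16 were shared (24.2%), 28 fetal-specific (42.4%) and 22 adult-specific (33.3%), against 25.7%, 38.9% and 35.4% of all first-batch contacts. Of the fetal calls 36.4% (22.4 to 52.2) were shared, where all first-batch promoters gave 39.8%. Of the adult calls 42.1% (26.3 to 59.2) were, equal to the 42.1% of all first-batch promoters. Counting bins within 5 kb of each other as shared raised the shares to 75% and 73.7%. A wider match can only raise a share, and these wider shares were not computed for other promoters. Median counts were 12 (fetal) and 6.5 (adult) at fetal-specific bins, and 8 and 13 at adult-specific bins. The calls define these classes, so the direction of those counts is no result. Of the 28 fetal-specific bins 18 scored within 1 unit of the threshold, as did 14 of the 22 adult-specific bins and 8 of the 16 shared bins in either population. Counting intervals of single bins excluded a ratio of 0 on the fetal side at 5 bins and on the adult side at 4. Those 5 were all fetal-specific and those 4 all adult-specific, so the calls that define the classes enter here too. The share of such bins over all first-batch contacts was not computed.

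Active enhancers were frequent among the distal bins of P1. In fetal cells 14 of 44 calls (31.8%, 18.6 to 47.6) fell in a bin marked as an active enhancer there, and in adult cells 14 of 38 (36.8%, 21.8 to 54). Over all first-batch promoters the shares were 12.7% of fetal and 13.1% of adult calls. Among the 618 fragments with at least 20 fetal calls the median share was 10.3%, and 36 others reached the share of P1. Among the 575 with at least 20 adult calls it was 10.5%, and 17 others did. Called bins often lie side by side, so they may not be independent and the intervals may be too narrow. Open chromatin was not frequent in the same way, at 24 fetal calls (54.5%) and 20 adult calls (52.6%), against 53.0% and 54.6% of all first-batch calls. Active promoter marks stood at 2 calls in each population, all in or beside the P2 bin, and no bin was marked as a poised enhancer or bivalent promoter.

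**Figure D4:**
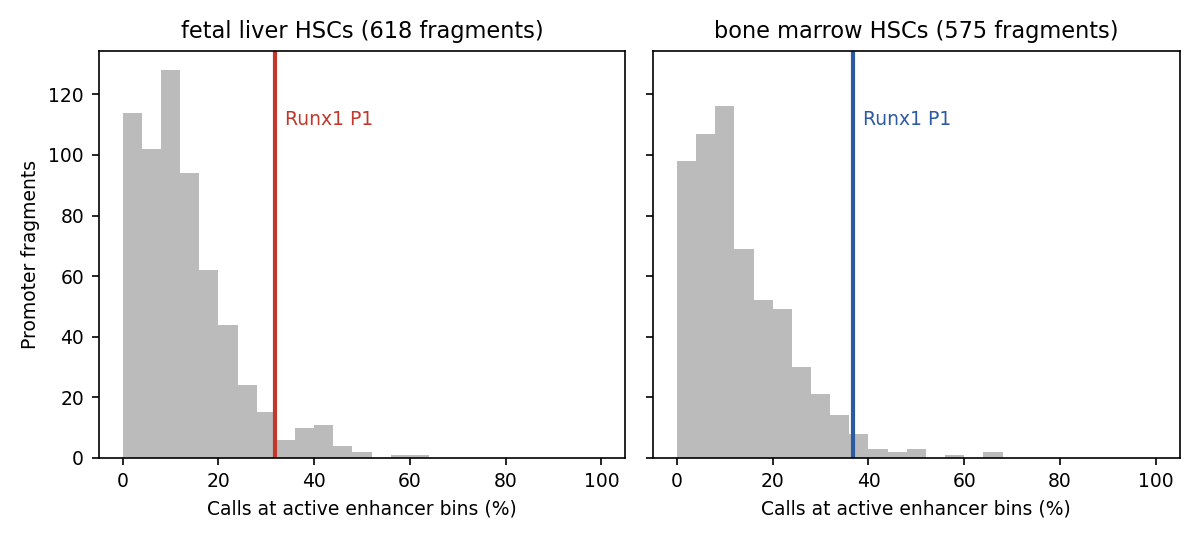
Histograms of the percentage of a fragment's calls that fell in active enhancer bins, for first-batch fragments with at least 20 calls in fetal liver HSCs (618, left) or bone marrow HSCs (575, right), with the vertical axis counting fragments. The Runx1 P1 fragment (line) stands at 31.8% and 36.8%, where the medians are 10.3% and 10.5%.

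Active enhancer marks at Runx1 were mostly the same in both populations. Of the 66 bins 18 were active enhancers in both, 4 in fetal cells only, 2 in adult cells only and 42 in neither. Among all first-batch contacts 4219 lay at bins active in both, 3733 at bins active in one and 41992 at bins active in neither. Open chromatin was marked in both at 27 bins, in fetal cells only at 9 and in adult cells only at 2. The same split of open chromatin over all first-batch contacts was not counted. The bins without an active enhancer had 523 fetal and 414 adult counts, a ratio of 0.24 (0.06 to 0.43). In it 22 fetal-specific and 12 adult-specific bins enter. It also takes in the bins at P2 (44 fetal and 29 adult, and 55 and 42 counts) and others of the P2 cluster. The ratio thus shares counts with that of the P2 cluster (0.46), and it was not computed without that cluster. Among population-specific bins without an active enhancer the fetal-specific share was 64.7% (46.5 to 80.3). The same kind of first-batch bins gave 53.1%, which lies within the interval. Those active in both had 260 and 278 counts, a ratio of -0.19 (-0.44 to 0.06). The 6 bins active in one population had 91 and 117, a ratio of -0.46 (-0.87 to -0.05), in which 3 adult-specific and 3 shared bins enter. The bin 25 kb downstream of P1 alone gave 31 and 42 of those counts, and the ratio without it was not computed. None of the 6 was fetal-specific, and 4 were active in fetal cells only. The mix of calls enters this ratio, and the class shares of such bins over the first batch were not computed. Median ratios of single bins were 0.29, -0.14 and -0.40 for the same groups, where all first-batch contacts gave 0.08, -0.09 and 0.

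No other captured gene shared the distal bins of Runx1. None of 3373 other genes called any of the same bins, so the rule that would name the genes with the most alike contacts named none. The Runx1 bins spanned 888 kb, and no contact of another promoter and no other captured fragment fell in that span. The nearest captured fragments were Fam165b, 525 kb downstream of P1, and Chaf1b, a histone chaperone gene, 1058 kb upstream. The bins of Fam165b ended at 92476001 and those of Chaf1b began at 93606001, outside the Runx1 bins from 92568001 to 93456001.

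Expression was listed per entry as FPKM, with 1 value per population. The P1 entry stood at 7.76 FPKM (fetal) and 11.8 FPKM (adult), and the P2 entry at 6.33 and 9.23 FPKM. On the log2(FPKM + 1) scale the fetal minus adult differences were -0.55 and -0.48. The authors' deposited table carries a mark for differential expression at 35.5% of first-batch fragments, and at neither Runx1 entry.

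The paralogues Runx2, a regulator of bone formation, and Runx3, a regulator of lymphoid cells, were each captured at 2 fragments. Fetal and adult calls were 60 and 46 and 40 and 38 at Runx2, and 38 and 52 and 2 and 2 at Runx3, which belongs to the second batch with its stricter threshold. Their FPKM were all higher in adult cells, from 2.02 and 7.50 at Runx2_2 to 3.70 and 14.1 at Runx2_1, and 4.50 and 9.71 and 5.98 and 12.0 at Runx3. In fetal cells the Runx1 entries had the highest FPKM of the 3 genes, and in adult cells Runx2_1 and a Runx3 entry exceeded the P1 entry. No replicate spread allows neighbours in this order to be told apart. Runx3 shared with Runx1 the feature of a second promoter with few contacts, although its promoters lie much closer together. Calls at active enhancers were 15.0% fetal (7.10 to 26.6) and 50% adult (34.9 to 65.1) at Runx2_1. They were 5.00% (0.61 to 16.9) and 13.2% (4.41 to 28.1) at Runx2_2. The larger Runx3 entry had 57.9% (40.8 to 73.7) and 63.5% (49.0 to 76.4). The share over all second-batch calls was not computed, so the Runx3 values are not set beside those of P1. The pair of Runx3 promoters was called in adult cells from both sides (55 and 79, and 74 and 83 counts from Runx3 and 86 and 93 from Runx3_1), and in fetal cells from Runx3_1 alone. At Runx2 a single adult call of 10 counts, against 11 fetal counts, joined the promoters.

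**Figure D5:**
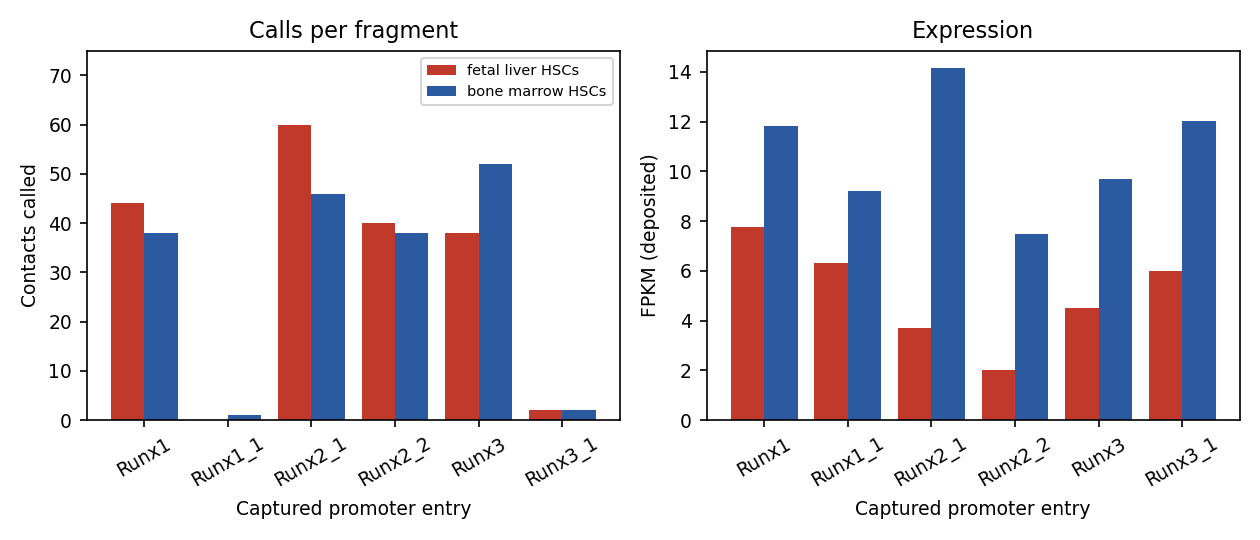
Contacts called per captured fragment (left, bars from 0) and deposited FPKM (right) of the Runx1, Runx2 and Runx3 entries in fetal liver and bone marrow HSCs. FPKM is higher in bone marrow at each entry, whereas calls are more numerous in fetal cells at the P1 entry (44 and 38) and in adult cells at Runx3 (38 and 52).

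Genes that work with RUNX1 were set beside it as lists. Of 6 RUNX paralogues and core-binding factor partners, 3 were listed (Runx2, Runx3 and Cbfa2t3, which encodes a corepressor), and 4 of their 6 fragments had more fetal and 1 more adult calls, with a median log2 ratio of calls of 0.17. All 6 factors that bind with RUNX1 in blood progenitors were listed, with 3 of 7 fragments higher in each direction and a median of 0. Examples are Tal1 (17 fetal and 14 adult calls), Lyl1 (7 and 12) and Fli1 (0 and 1). Of 9 target genes 8 were listed, with 4 fragments higher in fetal and 5 in adult cells and a median of -0.06, among them Myb, a transcription factor of blood progenitors (22 and 23), and Gfi1, a repressor, whose fragments leaned opposite ways (5 and 13 at Gfi1, 9 and 8 at Gfi1_1). All first-batch fragments had a median of 0 and all second-batch fragments one of 0.03. FPKM was higher in adult cells at all 7 fragments of the binding factors and at 5 of 9 of the targets, against 1002 of the 1952 first-batch fragments. The 7 fragments include 2 of Lmo2.

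Marker levels were checked against the labelled cell type. The stem and progenitor markers Kit, Cd34 and Procr had FPKM values well above 0 in both populations, with Kit at 32.8 (fetal) and 50.5 (adult), Cd34 at 36.3 and 26.5 and Procr at 10.4 and 8.94. Flt3, the gene of CD135, against which the cells were sorted, had 6.20 and 3.81 FPKM. The 4 lineage markers given here had higher fetal levels, with Marco, a macrophage receptor, at 7.99 (fetal) and 0.00996 (adult) FPKM and Hba-a1, an alpha-globin, at 6.27 and 0.0112 FPKM. Csf1r stood at 5.67 and 0.039 FPKM and Itgam at 1.16 and 0.412 FPKM. Lin28b, Hmga2 and Igf2bp2, of the fetal programme, summed to 43.5 and 3.82 FPKM. The part of other cell types in the fetal values of Runx1 was not tested, and with pooled cells a change in a share of cells and a change within each cell cannot be told apart.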

How the data were processed

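Reads of 150 bp pairs were trimmed and aligned with Trim Galore 0.41 and Bowtie2 2.2.2, and the build is mm9, per the submitters' processing notes. How reads were filtered and duplicates handled is not given in the sources used here. The authors deposited whole-number counts per contact and population, without stating whether the 2 libraries of a batch were summed or averaged. The authors deposited a caller score per contact, which is 0 where no call was made. FPKM values per promoter and 0 or 1 marks of the distal bins were also deposited by the authors, from other assays whose processing is not stated. Every column of values belongs to a pooled population, which leaves 0 unassigned.

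The members and gene lists were chosen with earlier results of these data known. The count test that needs a value per library was not run. Distance ran between the middles of fragment and bin. Ratios of calls used log2 after adding 1, and count ratios of sums used the counts as deposited. The median that count ratios were centred on, and medians over single contacts, were taken after adding 1 to each count. Intervals are exact Clopper-Pearson 95% intervals (scipy 1.17.1) and cover counting error only. Those of count ratios were checked on simulated counts larger than the counts of most Runx1 bins. The intervals of shares were not simulated. The rule for named items took the 5 contacts with the highest scores per population, all active enhancer bins, the 5 captured genes with the most alike bins, and lists of RUNX partners, co-binding factors and targets. Further bins were named after their values were seen, to describe the clusters. The library depth is not known, since the table lists called contacts only, and bins called in neither population were not analysed here. The replicates' source is not stated beyond batch. Alternatives covered the score threshold, merging, matching distance, scaling, distance limits, marks and cluster gaps. Single values of some listed marker and target genes are not reported here.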

Additional observations from a re-analysis of the deposited data

How the results depend on the processing

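No paired analysis was possible because the deposited columns pool the libraries of each population, and leaving out a library could not be run for the same reason. Of 52 alternative values, 40 stayed within the counting interval, the quartiles or 1.5 times the main value. Some of the 40 could not move, so the tally is no measure of robustness. No P1 contact lay within 20 kb, and P2 had a single listed contact that passed every threshold. The bins at 23 to 25 kb formed the same cluster at gaps of 10 and 40 kb. A p 10 times smaller left 18 fetal and 16 adult calls at P1 (main values 44 and 38), and the threshold of the second batch left 20 and 19. Merging called bins up to 5 kb apart left 18 and 19, which turned the log2 ratio of calls from 0.21 to -0.074. The share of P1 calls also called in the other population rose to 75% (fetal) and 73.7% (adult) for bins within 5 kb and to 95.5% and 92.1% within 20 kb. Such a rise follows from the wider match, and no other promoter was matched in this way. Scaling by summed counts moved the ratio of all P1 counts from 0.02 to -0.15. The ratio at P2 ranged from 0.30 to 0.56 and that at 23 to 25 kb from -1.20 to -0.94 over scalings and over cluster gaps of 10 and 40 kb, which were chosen after seeing the data. Single bins are limited by their depth, the median being 12 fetal counts at fetal-specific and 13 adult counts at adult-specific bins, and most such bins had intervals that include 0.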
